A study of Mus musculus with 54 samples.

Results

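A group of 10 protein-coding genes that differed in the same direction between swim and control mice in several organs were followed on every array of a study of 7 mouse tissues. Ankrd12, Utrn, Cplane1, Aak1 and Apex2 had been picked because they were higher after swimming, and Dtx4, Tomm40l, Chchd10, Polr2e and Eif2b2 because they were lower. They are called the higher set and the lower set here. The 10 genes are part of 18759 genes with a symbol of their own on the array, and all 10 were among the brighter genes kept for testing in all 7 tissues. Because the genes were picked on the difference between swim and control mice, that difference is given as a description with no test of its own.

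The study asked how organs outside muscle respond to exercise. The swim mice were C57BL6 animals of 14 weeks. They had first got used to the water over 9 days, adding 10 min at a time, and then swam for 3 weeks in 2 daily sessions of 90 min set 4 h apart. The control mice had the same strain and age; the labels call them control and do not say how they were handled. No genetic change or drug is named for either group. The series holds 54 microarrays, 27 from swim and 27 from control mice. Liver had 4 swim and 3 control arrays, muscle had 3 swim and 4 control arrays, and brain, spleen, kidney and both fat depots had 4 swim and 4 control arrays each. The labels do not say which tissues came from the same mouse, nor whether an array holds 1 animal, so the spread between arrays may be partly technical.

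The 2 sets cover unlike parts of the cell. Ankrd12 is a nuclear ankyrin repeat protein that binds coactivators of nuclear receptors and recruits histone deacetylases. Utrn encodes utrophin, the close relative of dystrophin that ties the actin skeleton to the dystroglycan complex of the membrane. Cplane1 belongs to the effector complex that assembles primary cilia, Aak1 is a kinase that acts on the AP2 adaptor of clathrin-coated vesicles, and Apex2 is an endonuclease that cuts DNA at abasic sites. In the lower set, Dtx4 is a Deltex ubiquitin ligase linked to Notch signalling, Tomm40l is a paralogue of the import channel of the outer mitochondrial membrane, and Chchd10 is a small protein of the mitochondrial intermembrane space. Polr2e is a subunit shared by the nuclear RNA polymerases, and Eif2b2 is a subunit of the exchange factor that recharges initiation factor eIF2 with GTP at each round of translation.

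Values are log2(signal + 16) after quantile normalization within a tissue, so that 1 unit is a doubling of a bright signal and more than a doubling of a dim one. Each difference is swim minus control, with the SE of a limma fit to all genes of the tissue. Array medians as deposited lay between 45.9 and 118.7 intensity units, so the choice of scaling matters and every difference was also computed on the values as deposited and on arrays centred on their medians. The control arrays carried the defining genes of their tissue, with Adipoq at 12.91 in visceral fat and 11.91 in subcutaneous fat, Alb at 12.88 in liver, Umod at 15.67 in kidney, Cd79a at 11.20 in spleen, Snap25 at 13.65 in brain and Ckm at 13.44 in muscle. Several arrays stood apart. In subcutaneous fat the lymphocyte genes were uneven in both groups: Cd79b, a B cell receptor gene, was at 6.15, 9.86, 11.17 and 5.33 in swim mice, against 6.23, 11.94, 12.06 and 11.94 in control mice. Among the swim arrays of that tissue, replicate 22 held Umod, a kidney gene, at 15.24, and replicate 23 held Ckm, a skeletal muscle gene, at 11.51. In liver, control replicate 52 held Ckm at 8.32. Results from subcutaneous fat and liver are therefore given with and without those arrays where it matters. In subcutaneous fat, leaving out control replicate 17 or swim replicates 22 and 23 makes the groups differ more in lymphocyte genes. Those refits therefore do not remove that difference. Other tissues held genes of other organs unevenly too. The summed linear signal of 5 liver genes ran between 105.7 and 1473 in swim spleens, against 65.62 and 8656 in control spleens. In muscle it ran between 457.5 and 3134, against 133.6 and 3741. That of 6 skeletal muscle genes ran between 180.9 and 245.4 in swim brains, against 234.3 and 1468 in control brains. The part of such RNA was not tested.

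Over 70 values, 1 for each gene and tissue, 61 lay in the direction for which the gene had been picked. The higher set accounted for 34 of 35 and the lower set for 27 of 35. All swim arrays lay beyond all control arrays in that direction in 50 of the 70, and beyond them in the opposite direction in 3. In visceral fat this held for 5 genes of the higher set, where 13.3% of all genes had every swim array above every control array, and for 5 of the lower set, where 14% had every swim array below. In kidney it held for 5 and 5 genes, beside 12.5% and 15.2% of all genes, and in spleen for 5 and 5, beside 12.7% and 11%. Brain had 4 genes of the higher set and 3 of the lower, beside 5.97% and 6.08%, and muscle 5 and 3, beside 12.9% and 15.7%. Fewer genes stood apart in liver and subcutaneous fat. Liver had only Ankrd12 and Dtx4, beside 9.92% above and 10.7% below. Subcutaneous fat had Apex2 in the higher set and Polr2e and Eif2b2 in the lower, beside 3.57% and 5.46%. Because these contrasts chose the genes, nothing is read from those counts against the background.

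**Figure D1:**
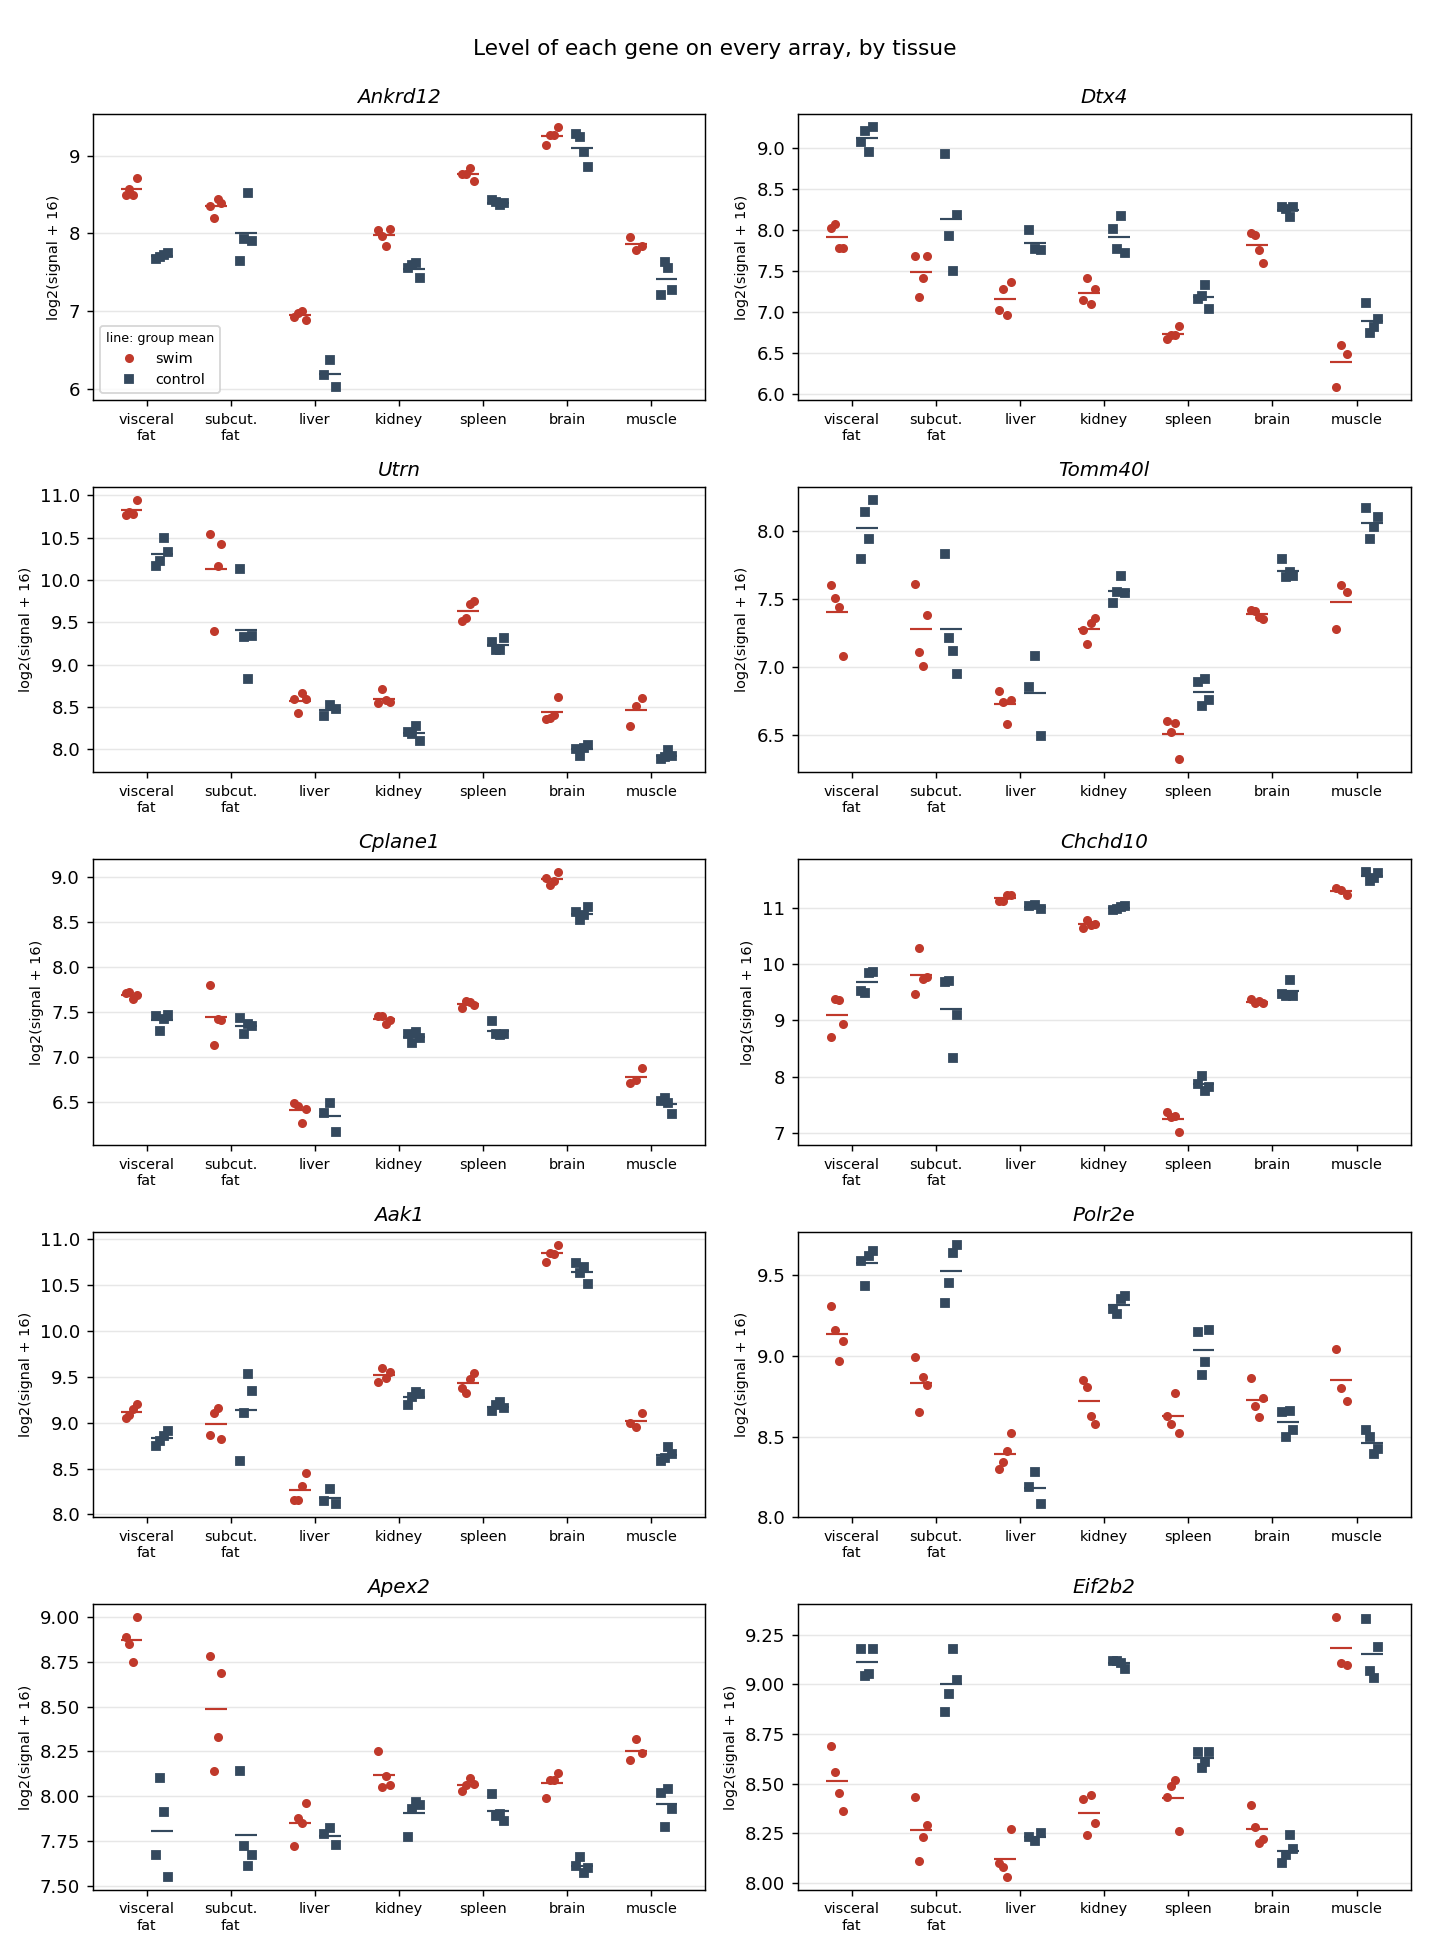
Level of each of the 10 genes, log2(signal + 16) after quantile normalization within the tissue (vertical axis), on each array of 7 tissues (horizontal axis); circles are swim arrays, squares control arrays and lines group means. The left column holds the higher set and the right column the lower set, and Dtx4 lies lower in swim mice in all 7 tissues while Polr2e lies lower in visceral fat, subcutaneous fat, kidney and spleen and higher in liver and muscle.

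Promoters were matched by symbol in a RefSeq table of build GRCm38.p6 whose windows run over 300 bases around an annotated start, most of them upstream. For 7 of the 10 genes it held 8 promoters, those of Ankrd12, Utrn, Cplane1, Aak1, Chchd10, Polr2e and Eif2b2. A set of 10 short motifs was searched on both strands, and the motifs and windows were picked after values and sequences had been seen. The 4 windows below are shown because they put genes of the 2 sets side by side and hold the motifs that few promoters hold. Capitals mark CACGTG, the E-box, in the first 2, TGATGCAA, the core of the amino acid response element, in the third, and CCGGAAG, an ETS site, in the last, on either strand.
Ankrd12, chr17:66076997-66077296, minus strand: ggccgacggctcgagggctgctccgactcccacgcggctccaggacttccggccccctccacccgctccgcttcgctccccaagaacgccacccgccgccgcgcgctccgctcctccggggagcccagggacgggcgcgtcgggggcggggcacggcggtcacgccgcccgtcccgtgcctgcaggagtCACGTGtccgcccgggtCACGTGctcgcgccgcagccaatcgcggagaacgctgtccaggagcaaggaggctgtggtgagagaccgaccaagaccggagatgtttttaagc
Utrn, chr10:12861686-12861985, minus strand: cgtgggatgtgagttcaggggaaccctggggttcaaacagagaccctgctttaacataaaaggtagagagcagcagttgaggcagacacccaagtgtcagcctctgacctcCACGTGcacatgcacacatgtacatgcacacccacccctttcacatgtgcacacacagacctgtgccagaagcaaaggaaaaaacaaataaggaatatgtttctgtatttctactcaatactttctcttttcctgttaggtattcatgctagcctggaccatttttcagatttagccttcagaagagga
Chchd10, chr10:75932880-75933179, plus strand: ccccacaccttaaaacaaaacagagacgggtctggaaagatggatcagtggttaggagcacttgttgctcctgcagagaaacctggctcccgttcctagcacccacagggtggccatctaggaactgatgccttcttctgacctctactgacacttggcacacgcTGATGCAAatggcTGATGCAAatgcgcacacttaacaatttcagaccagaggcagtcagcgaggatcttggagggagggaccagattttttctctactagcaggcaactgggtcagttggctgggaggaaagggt
Eif2b2, chr12:85219231-85219530, plus strand: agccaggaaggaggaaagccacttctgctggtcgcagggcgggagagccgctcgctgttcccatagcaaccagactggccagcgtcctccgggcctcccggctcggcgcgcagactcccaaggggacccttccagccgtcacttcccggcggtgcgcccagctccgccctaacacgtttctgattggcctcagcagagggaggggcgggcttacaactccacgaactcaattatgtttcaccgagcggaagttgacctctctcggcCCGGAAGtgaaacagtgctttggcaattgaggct

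The E-box stood in the Ankrd12 window in 2 copies and in the Utrn window in 1 copy, and in 7.15% of all 32851 promoters of the table. The sequence TGATGCAA stood in 2 copies in the Chchd10 window and in 0.895% of all promoters. CCGGAAG was found for Ankrd12, Aak1 and Eif2b2 and in 8.86% of all promoters. CCAAT was found for Ankrd12 and Eif2b2, beside 37.4% of all, and the GC box GGGCGG for Ankrd12, Cplane1, Aak1, Polr2e and Eif2b2, beside 35.7%. The D-box TTATGTAA, the cyclic AMP element TGACGTCA, the ERR site TNAAGGTCA, the TATA box TATAAA and the NRF1 site were in none of the 8 windows, beside 0.938%, 1.79%, 1.28%, 13.6% and 0.971% of all promoters. This says only that these letters are not in these windows. No motif stood in the windows of all 7 genes. A match is a description and not a binding site. The windows also differed in composition, with 73% G and C for Ankrd12 and 46% for Utrn, against a median of 52.7% over the table.

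Ankrd12 had the largest average of the higher set. In visceral fat it stood at 8.49, 8.57, 8.5 and 8.71 in swim mice, against 7.67, 7.70, 7.72 and 7.75 in control mice, a difference of 0.86 ± 0.07 (SE). In liver it stood at 6.92, 6.98, 7.0 and 6.89 in swim mice, against 6.17, 6.37 and 6.02 in control mice, a difference of 0.76 ± 0.09. Every swim array lay above every control array in both tissues, and without control replicate 52 the liver difference was 0.69. Kidney, spleen and muscle gave 0.43 ± 0.06, 0.36 ± 0.05 and 0.44 ± 0.11 with no overlap of the groups. In subcutaneous fat Ankrd12 differed by 0.35 ± 0.20 and the groups overlapped. In brain, where its control level was highest, the groups overlapped and the difference was 0.16 ± 0.10, which became -0.06 on the values as deposited, or 0.14 relative to the median of all genes on that scale. Ndufv2, a subunit gene of respiratory complex I whose RefSeq span overlaps that of Ankrd12, passed the test in 0 of 7 tissues at an adjusted limma p of 0.05, and its differences ran between -0.13 and 0.50.

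The nuclear receptor cofactor genes around Ankrd12 were few. Of 6 measured, 1 was higher in kidney, 2 in spleen and 1 in muscle, and 0 were lower in any tissue. Ankrd11, the paralogue of Ankrd12, was higher in kidney by 0.23 ± 0.05 (limma adjusted p = 0.00718). Ncoa3, a coactivator, was higher in spleen by 0.24 ± 0.06 (adjusted p = 0.033) and in muscle by 0.30 ± 0.07 (adjusted p = 0.0325). These counts stand beside 10.9% of all kidney genes, 7.02% of all spleen genes and 5.72% of all muscle genes that passed and were higher.

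Utrn was higher in swim mice on average in all 7 tissues under each of the 3 scalings. In brain it stood at 8.36, 8.37, 8.41 and 8.62 in swim mice, against 8.0, 7.92, 8.02 and 8.05 in control mice. In muscle it stood at 8.28, 8.51 and 8.61 in swim mice, against 7.88, 7.91, 7.99 and 7.92 in control mice. The groups did not overlap in these tissues, and the differences were 0.44 ± 0.07 and 0.54 ± 0.08. Visceral fat, kidney and spleen gave 0.52 ± 0.09, 0.41 ± 0.06 and 0.40 ± 0.07, again without overlap. Liver gave 0.11 ± 0.07 with overlap. The visceral fat value depended on scaling, at 0.21 as deposited and 0.10 after median centring, where the median of all genes itself moved by -0.10 and -0.22.

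Subcutaneous fat gave the largest Utrn difference and the widest spread, 0.73 ± 0.33, with 10.54, 9.40, 10.17 and 10.42 in swim mice, against 10.13, 9.33, 8.83 and 9.34 in control mice. Control replicate 17, which lacks the lymphocyte genes of the other control arrays, stood at 10.13, inside the range of the swim arrays. Leaving this array out gave 0.96, and leaving out swim replicates 22 and 23 instead gave 1.08. In both refits the groups differed more in lymphocyte genes than with all arrays. Swim replicates 21 and 24, where Cd79b was also low, stood at 10.54 and 10.42. The part of lymphocyte content in the subcutaneous fat difference was not tested.

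The partners of utrophin at the membrane did not move as one. In muscle 3 of 14 measured genes of the complex were higher and 0 lower, where 5.72% of all genes passed as higher and 5.79% as lower. In kidney 3 of 9 were higher and 1 lower, where 10.9% of all genes passed as higher and 13.6% as lower. Sntb1, the syntrophin that binds utrophin and dystrophin, was higher in muscle by 0.85 ± 0.14 (limma adjusted p = 0.0153) and in kidney by 0.24 ± 0.05 (adjusted p = 0.0105). Dtna, dystrobrevin alpha, was higher in muscle by 0.41 ± 0.08 (adjusted p = 0.0218) and in kidney by 0.30 ± 0.05 (adjusted p = 0.00285). Dmd, which encodes dystrophin, was above the brightness filter in brain, spleen and muscle, was higher in spleen by 0.33 ± 0.06 (adjusted p = 0.0144), and differed by 0.08 in muscle and -0.02 in brain without passing. In visceral fat 1 gene of 12 was higher and 1 lower, beside 11.3% and 12.1% of all genes.

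Cplane1 was higher on average in all 7 tissues. In brain it stood at 8.98, 8.91, 8.95 and 9.05 in swim mice, against 8.61, 8.52, 8.57 and 8.66 in control mice, which is 0.38 ± 0.06 with no overlap. Visceral fat, kidney, spleen and muscle lay between 0.20 and 0.30, also with no overlap. Liver and subcutaneous fat overlapped, at 0.06 ± 0.09 and 0.09 ± 0.16, and the liver value was -0.03 without control replicate 52. The 3 probe sets of the gene agreed in sign in every tissue but liver, where the 2 dimmer ones gave -0.01 and -0.02. They differed in size. The dimmest gave 0.06 ± 0.06 in kidney, 0.09 ± 0.08 in spleen and 0.35 ± 0.06 in muscle, where the brightest gave 0.20, 0.30 and 0.30. Of the other cilium and planar polarity genes, 4 of 12 were lower in visceral fat, beside 12.1% of all genes, and 1 of 13 in kidney, beside 13.6%, and 0 were higher in any tissue. Fuz, a partner of Cplane1 in the effector complex, was lower in visceral fat at -0.35 ± 0.07 (limma adjusted p = 0.00814) and in kidney at -0.18 ± 0.05 (adjusted p = 0.0293). Wdpcp, another partner, was lower in visceral fat at -0.23 ± 0.07 (adjusted p = 0.0487).

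Aak1 was the gene of the higher set with the smallest average. In muscle it stood at 9.00, 8.95 and 9.10 in swim mice, against 8.58, 8.62, 8.73 and 8.66 in control mice, a difference of 0.37 ± 0.06. The groups were also apart in visceral fat, kidney, spleen and brain, where differences lay between 0.20 and 0.29. In spleen the difference of 0.25 became -0.07 on the values as deposited, in a tissue where the median of all genes moved by -0.27 on that scale, so that relative to this median it was 0.20. In subcutaneous fat the difference was -0.15 ± 0.22 and the groups overlapped. A second, dimmer probe set of Aak1 gave another picture of brain, with 0.69 ± 0.11 where the brighter one gave 0.20 ± 0.07, and in visceral fat it gave 0.53 ± 0.08 where the brighter one gave 0.29 ± 0.07. In subcutaneous fat the dimmer one gave 0.14 ± 0.12, against -0.15, and in kidney 0.11 ± 0.07, against 0.24. In spleen, muscle and liver it gave 0.27, 0.23 and 0.06, against 0.25, 0.37 and 0.09.

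The endocytic genes around Aak1 passed in both directions. In kidney 2 of 14 were higher and 2 lower, beside 10.9% and 13.6% of all genes, and in visceral fat 1 was higher and 1 lower, beside 11.3% and 12.1%. In muscle 2 were higher and 0 lower, beside 5.72% and 5.79%, and in spleen 0 were higher and 1 lower, beside 7.02% and 7.01%. Epn2, an adaptor that bends the membrane, was higher in visceral fat by 0.36 ± 0.07 (limma adjusted p = 0.00578), in kidney by 0.19 ± 0.05 (adjusted p = 0.02) and in muscle by 0.26 ± 0.06 (adjusted p = 0.0377). Cltb, a clathrin light chain, was lower in visceral fat at -0.60 ± 0.10 (adjusted p = 0.00363) and in kidney at -0.47 ± 0.04 (adjusted p = 0.000252). Ap2m1, the adaptor subunit that Aak1 phosphorylates, was lower in kidney at -0.21 ± 0.04 (adjusted p = 0.00512). Bmp2k, a kinase of the same family, was higher in kidney by 0.15 ± 0.05 (adjusted p = 0.0399), and Gak, the third such kinase, passed in no tissue, with differences between -0.11 and 0.16.

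Apex2 held the largest single difference of the higher set. In visceral fat it stood at 8.89, 8.85, 8.75 and 9.00 in swim mice, against 7.67, 8.10, 7.91 and 7.55 in control mice, which is 1.07 ± 0.12 or 2.09-fold. In subcutaneous fat it stood at 8.78, 8.14, 8.33 and 8.69 in swim mice, against 8.14, 7.72, 7.61 and 7.67 in control mice, so the lowest swim and the highest control array were equal after rounding, and the difference was 0.70 ± 0.20. In brain it stood at 7.99, 8.09, 8.09 and 8.13 in swim mice, against 7.61, 7.66, 7.57 and 7.60 in control mice, a difference of 0.46 ± 0.05. Kidney, spleen and muscle gave 0.21, 0.15 and 0.30 with no overlap, and liver 0.07 ± 0.07 with overlap. The spleen value turned to -0.15 on the values as deposited, which is 0.12 above the median of all genes on that scale.

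Genes of base excision repair passed in both directions. In kidney 2 of 13 were higher and 1 lower, beside 10.9% and 13.6% of all genes. In muscle 0 of 14 were higher and 2 lower, beside 5.72% and 5.79%, and in visceral fat 0 of 14 were higher and 1 lower, beside 11.3% and 12.1%. Xrcc1, the scaffold of single strand break repair, was lower in visceral fat at -0.37 ± 0.08 (limma adjusted p = 0.0096), in kidney at -0.30 ± 0.05 (adjusted p = 0.00396) and in muscle at -0.24 ± 0.06 (adjusted p = 0.047). Nthl1, a glycosylase, was higher in kidney by 0.30 ± 0.10 (adjusted p = 0.0471). RefSeq draws the Apex2 span over neighbouring genes, among them Alas2, the erythroid enzyme that starts haem synthesis. Alas2 was higher in visceral fat by 0.44 ± 0.14 (adjusted p = 0.045) and in muscle by 0.67 ± 0.14 (adjusted p = 0.0262), and in spleen, where Apex2 differed by 0.15, Alas2 differed by -0.54 ± 0.23 (adjusted p = 0.129).

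Dtx4 had the largest average of all 10 genes and was lower in swim mice in all 7 tissues under each scaling. In visceral fat it stood at 8.03, 8.08, 7.79 and 7.78 in swim mice, against 9.08, 9.21, 8.96 and 9.26 in control mice, a difference of -1.21 ± 0.10. In liver it stood at 7.03, 7.28, 6.97 and 7.37 in swim mice, against 8.01, 7.77 and 7.76 in control mice, a difference of -0.69 ± 0.12. In kidney it stood at 7.15, 7.42, 7.10 and 7.29 in swim mice, against 8.02, 7.77, 8.18 and 7.72 in control mice, a difference of -0.68 ± 0.11. Every swim array lay below every control array in all 3 tissues. Spleen, brain and muscle gave -0.44 ± 0.07, -0.43 ± 0.09 and -0.51 ± 0.13 with no overlap. In subcutaneous fat the groups overlapped through control replicate 19, at 7.51, and the difference was -0.65 ± 0.29, or -0.38 without control replicate 17. Averaged over the 6 organs outside muscle, the difference of Dtx4 was -0.68 ± 0.07, rank 17 from the lowest of 11712 genes.

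Macrophage genes were also lower in swim mice in most of these tissues. The summed linear signal of 6 such genes (Adgre1, Csf1r, Mpeg1, Cd68, C1qa and C1qb) ran between 1407 and 2011 in swim livers, against 2904 and 3148 in control livers. It ran between 773.7 and 938.9 in swim kidneys, against 1184 and 1350 in control kidneys. Subcutaneous fat, spleen, brain and muscle were likewise lower in every swim array, while visceral fat overlapped, between 2804 and 4349 in swim mice, against 1997 and 4005 in control mice. Mpeg1, a pore-forming protein of macrophages, is also the next coding gene to Dtx4 in RefSeq's order. Mpeg1 was lower in liver, kidney, spleen and muscle, with a kidney difference of -0.66 ± 0.07 (limma adjusted p = 0.000337), where Dtx4 differed by -0.68. In visceral fat it was higher by 1.22 ± 0.20 (adjusted p = 0.00363), where Dtx4 differed by -1.21. Fewer macrophages and less RNA per macrophage cannot be told apart in whole tissue. The part of macrophage content in the values of the lower set was not tested.

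Notch genes that passed were mostly higher in swim mice. In muscle 7 of 17 were higher and 0 lower, in visceral fat 6 of 17 were higher and 1 lower, in kidney 5 of 17 were higher and 1 lower, and in spleen 4 of 18 were higher and 0 lower. In those tissues 5.72%, 11.3%, 10.9% and 7.02% of all genes passed and were higher. Hey1, a repressor induced by Notch, was higher in visceral fat by 0.67 ± 0.14 (limma adjusted p = 0.00871), in kidney by 0.25 ± 0.08 (adjusted p = 0.0488), in spleen by 0.37 ± 0.07 (adjusted p = 0.0149) and in muscle by 0.52 ± 0.10 (adjusted p = 0.0218). Hes1, of the same list, passed only in kidney, higher by 0.25 ± 0.08 (limma adjusted p = 0.0414). It differed by -0.04 in visceral fat, -0.06 in spleen and -0.64 ± 0.20 in muscle (limma adjusted p = 0.075). The ligand Dll4 was higher in visceral fat by 0.94 ± 0.12 (adjusted p = 0.00106), in kidney by 0.26 ± 0.06 (adjusted p = 0.0125) and in muscle by 0.61 ± 0.16 (adjusted p = 0.0491). The receptor Notch3, found on mural cells of vessels, was higher in visceral fat by 0.75 ± 0.12 (adjusted p = 0.00363), in kidney by 0.29 ± 0.09 (adjusted p = 0.0367) and in muscle by 0.67 ± 0.06 (adjusted p = 0.00389). Among the other Deltex genes, Dtx2 was lower in visceral fat at -0.79 ± 0.14 (adjusted p = 0.00502), Dtx1 was higher in spleen by 0.26 ± 0.07 (adjusted p = 0.0393), and Dtx3 passed in no tissue, with differences between -0.15 and 0.16.

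Tomm40l was lower without overlap in visceral fat, kidney, spleen, brain and muscle. In muscle it stood at 7.28, 7.60 and 7.55 in swim mice, against 8.17, 7.94, 8.03 and 8.10 in control mice, a difference of -0.58 ± 0.09. In brain it stood at 7.42, 7.41, 7.37 and 7.35 in swim mice, against 7.79, 7.66, 7.70 and 7.67 in control mice, a difference of -0.32 ± 0.05. No swim array reached a control array in either tissue. Subcutaneous fat gave 0.00 ± 0.23 and liver -0.08 ± 0.13, with overlap, and liver gave -0.24 without control replicate 52. A probe set that the array annotation shares between Tomm40l and its neighbour Nr1i3 was not used.

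Import genes that passed were mostly lower. In muscle 0 of 18 were higher and 3 lower, beside 5.72% and 5.79% of all genes, and in spleen 0 and 3, beside 7.02% and 7.01%. In visceral fat 0 were higher and 2 lower, beside 11.3% and 12.1%, and in kidney 1 and 2, beside 10.9% and 13.6%, which for the lower genes is near the share over all genes. Tomm40, the main import channel, was lower in visceral fat at -0.44 ± 0.11 (limma adjusted p = 0.0186) and in spleen at -0.30 ± 0.05 (adjusted p = 0.0111). Tomm20, the receptor of the same complex, was lower in visceral fat at -0.41 ± 0.09 (adjusted p = 0.00994) and in muscle at -0.35 ± 0.09 (adjusted p = 0.0487), and was higher in kidney by 0.22 ± 0.05 (adjusted p = 0.0159).

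Chchd10 was lower in 5 tissues and higher in the other 2. In spleen, where its level was lowest, it stood at 7.38, 7.29, 7.30 and 7.02 in swim mice, against 7.87, 8.02, 7.75 and 7.81 in control mice, a difference of -0.62 ± 0.09. In liver it stood at 11.12, 11.12, 11.22 and 11.23 in swim mice, against 11.02, 11.05 and 10.97 in control mice, a difference of 0.16 ± 0.06. The groups were apart in both tissues and in opposite directions, and the liver difference was 0.13 without control replicate 52. Visceral fat, kidney, brain and muscle gave -0.58, -0.29, -0.19 and -0.27 with no overlap. Subcutaneous fat gave 0.61 ± 0.33 with overlap. There the highest Chchd10 array, at 10.28, was swim replicate 22, the one with kidney genes. With all arrays normalized together, Chchd10 averaged 10.91 in control kidneys and 9.29 in control subcutaneous fat. When swim replicates 22 and 23 were left out the difference was 0.42. That refit sets swim arrays low in lymphocyte genes against controls mostly rich in them. Control replicate 17, low in these genes, stood at 9.68, between swim replicates 21 and 24 at 9.47 and 9.77. Control replicates 18, 19 and 20 stood at 9.7, 8.33 and 9.09. The parts of kidney RNA and of lymphocyte content in the difference were not tested.

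Of 15 relatives of Chchd10 and genes of cristae organisation, kidney had 1 higher and 2 lower, beside 10.9% and 13.6% of all genes, and muscle 0 and 2, beside 5.72% and 5.79%. Visceral fat had 0 higher and 1 lower, beside 11.3% and 12.1%, and spleen 0 and 1, beside 7.02% and 7.01%. Chchd2, its paralogue, was lower in muscle at -0.26 ± 0.06 (limma adjusted p = 0.0348). Chchd5 was lower in visceral fat at -0.37 ± 0.11 (adjusted p = 0.0381) and in kidney at -0.40 ± 0.05 (adjusted p = 0.000772).

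Polr2e split the tissues in the clearest way. In kidney it stood at 8.85, 8.81, 8.63 and 8.58 in swim mice, against 9.29, 9.26, 9.35 and 9.37 in control mice, a difference of -0.60 ± 0.07. In subcutaneous fat it stood at 8.99, 8.65, 8.87 and 8.82 in swim mice, against 9.33, 9.45, 9.64 and 9.69 in control mice, a difference of -0.69 ± 0.14. In muscle it stood at 9.04, 8.80 and 8.72 in swim mice, against 8.54, 8.5, 8.39 and 8.42 in control mice, a difference of 0.39 ± 0.09. All swim arrays lay below all control arrays in kidney and subcutaneous fat and above them in muscle. Visceral fat and spleen gave -0.44 and -0.41 without overlap. Liver gave 0.21 ± 0.08 without overlap, in the direction of muscle, or 0.16 without control replicate 52. Brain gave 0.14 ± 0.07 with overlap, which became -0.07 on the values as deposited, or 0.13 relative to the median of all genes.

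Other polymerase subunits passed in both directions. Of 12, visceral fat had 1 higher and 1 lower, beside 11.3% and 12.1% of all genes, and kidney 1 and 1, beside 10.9% and 13.6%. Spleen had 0 higher and 2 lower, beside 7.02% and 7.01%, and muscle 0 and 0, beside 5.72% and 5.79%. Polr2l, a small shared subunit, was lower in kidney at -0.26 ± 0.05 (limma adjusted p = 0.00539) and in spleen at -0.34 ± 0.06 (adjusted p = 0.0139). Polr2a, the largest subunit, was higher in kidney by 0.21 ± 0.06 (adjusted p = 0.0303). Polr2f, another shared subunit, was lower in visceral fat at -0.63 ± 0.15 (adjusted p = 0.0149) and in spleen at -0.25 ± 0.06 (adjusted p = 0.0229).

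Eif2b2 was furthest below control in kidney and in both fat depots. In kidney it stood at 8.42, 8.24, 8.44 and 8.30 in swim mice, against 9.12, 9.12, 9.11 and 9.08 in control mice, a difference of -0.76 ± 0.05. In subcutaneous fat it stood at 8.43, 8.11, 8.23 and 8.29 in swim mice, against 8.86, 8.95, 9.18 and 9.02 in control mice, a difference of -0.73 ± 0.14. The control kidneys differed among themselves by a small part of that gap, and the fat value was -0.77 with control replicate 17 left out and -0.64 with swim replicates 22 and 23 left out. Visceral fat gave -0.60 ± 0.09 and spleen -0.20 ± 0.06, both without overlap. Liver, brain and muscle overlapped, at -0.11, 0.11 and 0.03. In brain and muscle the sign depended on scaling, with -0.08 and -0.24 as deposited, and relative to the median of all genes on that scale these were 0.12 and -0.01.

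The other subunits of the exchange factor were lower where they passed. Eif2b4 was lower in visceral fat at -0.31 ± 0.09 (limma adjusted p = 0.029), in kidney at -0.20 ± 0.06 (adjusted p = 0.0336), in spleen at -0.21 ± 0.05 (adjusted p = 0.0332) and in muscle at -0.37 ± 0.07 (adjusted p = 0.025). Eif2b1 was lower in visceral fat at -0.28 ± 0.09 (adjusted p = 0.0449) and in kidney at -0.15 ± 0.05 (adjusted p = 0.0497). Eif2b5, the catalytic subunit, was lower in visceral fat at -0.30 ± 0.09 (adjusted p = 0.0426), and Eif2b3 passed in no tissue, with differences between -0.24 and 0.18. Of the 13 measured genes of this list, which also holds eIF2 subunits, eIF2 kinases and phosphatase subunits, visceral fat had 1 higher and 6 lower, beside 11.3% and 12.1% of all genes. Kidney had 0 and 3, beside 10.9% and 13.6%, spleen 0 and 2, beside 7.02% and 7.01%, and muscle 0 and 1, beside 5.72% and 5.79%.

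Over the 10 lists together, with the 10 genes left out, visceral fat had 10 of 132 genes higher and 18 lower, beside 11.3% and 12.1% of all genes. Kidney had 16 of 129 higher and 14 lower, beside 10.9% and 13.6%. Spleen had 7 of 131 higher and 9 lower, beside 7.02% and 7.01%, and muscle 13 of 134 higher and 8 lower, beside 5.72% and 5.79%. In subcutaneous fat, liver and brain 0 list genes passed in limma at an adjusted p of 0.05. Over all genes the shares that passed there were 0% higher and 0% lower in subcutaneous fat, 1.83% and 2.16% in liver, and 0.43% and 0.0516% in brain, while 2481, 2395 and 1898 genes had an unadjusted p under 0.05. Without control replicate 17, subcutaneous fat had 30 list genes higher and 11 lower. The share over all genes was not computed for this refit or those that follow, so nothing about the lists is read from these counts. Single arrays mattered elsewhere too: muscle had 1 higher and 0 lower when swim replicate 46 was left out, and leaving out any 1 array gave 8 to 11 higher and 7 to 10 lower in kidney, 2 to 6 and 3 to 12 in spleen, and 7 to 8 and 9 to 19 in visceral fat.

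**Figure D2:**
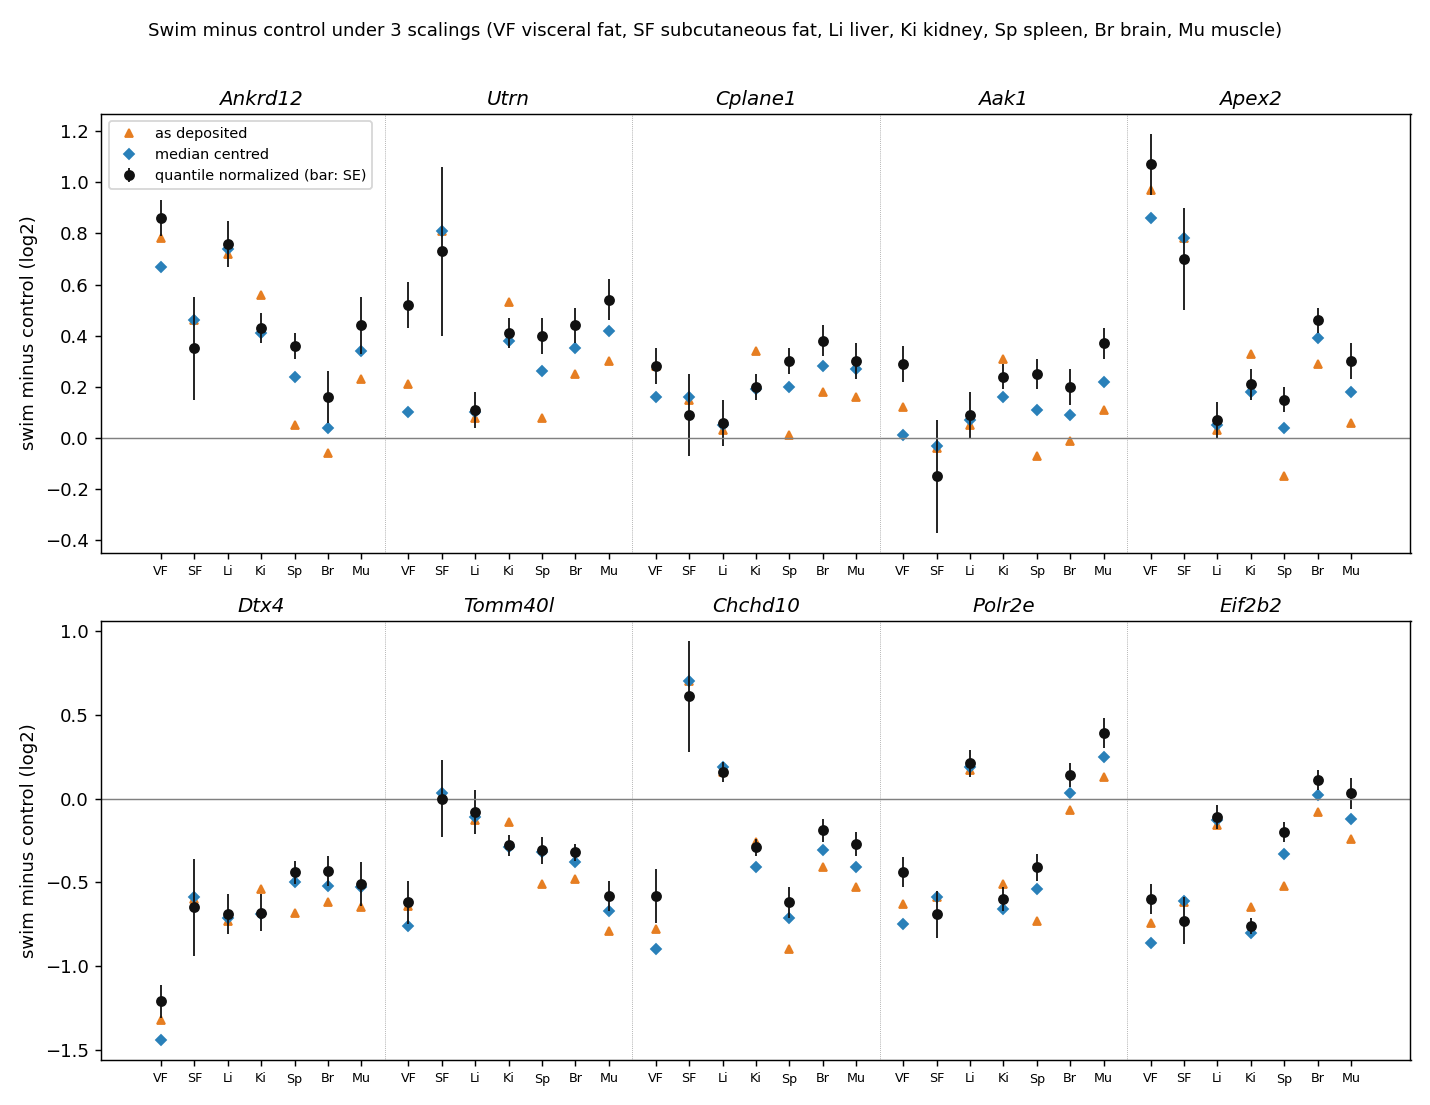
Swim minus control on the log2 scale (vertical axis) for each gene and tissue (horizontal axis), with the higher set above and the lower set below. Black circles are quantile normalized values with their SE, triangles values as deposited and diamonds arrays centred on their medians; Dtx4 lies below 0 in every tissue under all 3, and Aak1 in spleen lies at 0.25, -0.07 and 0.11.

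Most directions were the same under the 3 scalings. Of the 70 values, 61 lay in the direction of the choice after quantile normalization, 60 as deposited and 62 after median centring. The higher set had 34 of 35 after quantile normalization, 30 as deposited and 34 after median centring, and the lower set 27, 30 and 28. The median of all genes moved by -0.27 in spleen, -0.23 in muscle and -0.20 in brain on the values as deposited, and by -0.22 in visceral fat after median centring. Taken relative to that median, 62, 63 and 63 values lay in the direction of the choice under quantile normalization, as deposited and median centred. Averaged over the 6 organs outside muscle the quantile normalized differences were 0.49 ± 0.04 for Ankrd12, 0.44 ± 0.04 for Apex2, 0.43 ± 0.06 for Utrn, 0.22 ± 0.03 for Cplane1 and 0.15 ± 0.04 for Aak1. In the lower set they were -0.68 ± 0.07 for Dtx4, -0.38 ± 0.03 for Eif2b2, -0.30 ± 0.04 for Polr2e, -0.27 ± 0.05 for Tomm40l and -0.15 ± 0.07 for Chchd10. By size they ranked from 73 (Ankrd12) to 1642 (Aak1) from the top in the higher set, and from 17 (Dtx4) to 1896 (Chchd10) from the bottom in the lower set, so genes ranked between them lie outside the 2 sets. The SE of these averages treat all arrays as independent, with 1 variance per gene over all tissues. They may be too small if organs came from the same mice.

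The sets differed in gene length. Since length went with the swim difference over all genes, as given next, choosing genes on that difference favours long genes in the higher set and short genes in the lower set, and the lengths are a description. Length was taken as the span of the gene in RefSeq, introns included, and genes were cut by span into 5 classes of equal number. All 5 genes of the higher set lay in the longest class, above 72.9 kb, with spans of 113 kb for Ankrd12, 488 kb for Utrn, 102 kb for Cplane1, 154 kb for Aak1 and 161 kb for Apex2. The Apex2 span covers other genes, so its own length is uncertain. In the lower set Tomm40l (4.71 kb), Chchd10 (4.62 kb), Polr2e (3.71 kb) and Eif2b2 (7.15 kb) lay in the shortest class, below 8.08 kb, and Dtx4 spanned 35.9 kb. The median over all genes was 24.4 kb.

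Length also went with the swim difference over genes that are in neither set. For each array the median of the longest class minus that of the shortest class was taken, relative to the mean of the tissue and without the 10 genes. In kidney this ran between 0.03 and 0.08 in swim mice, against -0.09 and -0.03 in control mice, and in muscle between 0.06 and 0.07 in swim mice, against -0.06 and -0.02 in control mice. Subcutaneous fat had the widest gap, with 0.10 to 0.13 in swim mice, against -0.20 to -0.03 in control mice. There control replicates 18, 19 and 20, rich in lymphocyte genes, stood at -0.188, -0.197 and -0.086, and control replicate 17 at -0.032. Swim replicates 22 and 23, which also held such genes, stood at 0.128 and 0.097, beside 0.124 and 0.103 in swim replicates 21 and 24. The part of lymphocyte content in this gap was not tested. The groups did not overlap in 6 of 7 tissues. Liver was the exception, with -0.02 to 0.05 in swim mice, against -0.02 to 0.03 in control mice. The highest liver control, at 0.032, was replicate 52, the array with Ckm at 8.32. Control replicates 49 and 50 stood at -0.021 and -0.025. Swim replicates 53, 54 and 55 lay above them, at -0.006, -0.002 and 0.045, and swim replicate 56 lay between them, at -0.024. Without replicate 52 the liver groups thus still overlapped, but only through swim replicate 56. On the values as deposited and after median centring the groups were apart in 5 tissues. Across genes, which are not independent replicates, the rank correlation of span with the swim difference was between 0.16 and 0.23 in those 6 tissues. In liver, with control replicate 52 included, this correlation was 0.01.

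**Figure D3:**
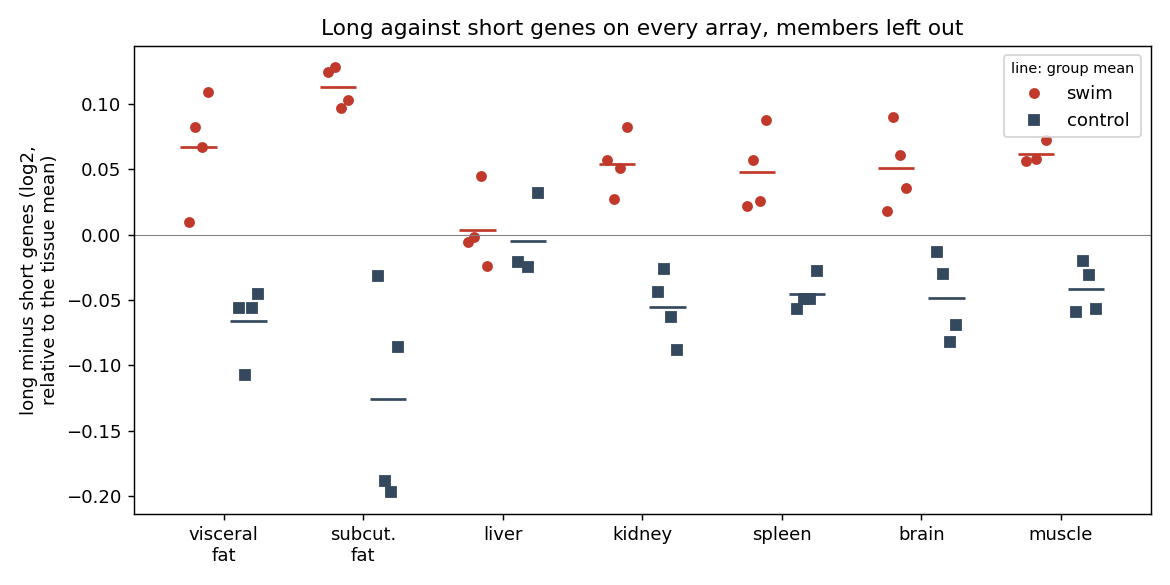
Median of the longest of 5 classes of genes minus that of the shortest, on the log2 scale and relative to the mean of the tissue (vertical axis), for each array of 7 tissues (horizontal axis); circles are swim arrays, squares control arrays and lines group means. Swim arrays lie above control arrays in all tissues but liver, by 0.09 to 0.24 on average.

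Within groups, how closely the genes moved together depended on the scaling. Residuals from the 14 group means were correlated over 54 arrays, as a description, since the arrays share their normalization and tissue collection. After quantile normalization the median Pearson r was 0.01 over the 10 pairs within the higher set, 0.06 over the 10 pairs within the lower set and 0.03 over the 25 pairs across the sets. The median Spearman correlations were 0.14, 0.08 and 0.02. Without subcutaneous fat, 46 arrays gave median Pearson values of 0.14, 0.14 and -0.01. These low values hold for quantile normalization only: the medians were 0.73, 0.71 and 0.74 on the values as deposited and 0.41, 0.56 and 0.50 after median centring.

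Single pairs went further, and one turned sign with the tissues used. Over 54 arrays the Pearson r was 0.66 for Polr2e and Eif2b2, 0.60 for Dtx4 and Tomm40l and -0.53 for Utrn and Aak1 (Spearman 0.62, 0.58 and 0.11). Without subcutaneous fat, Polr2e and Eif2b2 correlated at a Pearson r of 0.59 (Spearman 0.54, and 0.54 without the 2 arrays farthest out), Utrn and Aak1 at 0.49 (Spearman 0.53, and 0.48), and Dtx4 and Tomm40l at 0.43 (Spearman 0.50, and 0.36). Per tissue, over 7 or 8 arrays, brain had medians of 0.37 and 0.49 within the sets and -0.29 across them, while kidney had 0.06, -0.02 and 0.18. Among 8566 genes measured in all tissues, the residuals most like those of Polr2e were of Txnl4a (r = 0.75) and Myg1 (0.73), and those most like Eif2b2 were of Slc35f6 (0.78) and Aimp2 (0.73). For Tomm40l they were Polr2i (0.83) and Rhoc (0.81), for Chchd10 Acot13 (0.82) and Pgk1 (0.78), and for Dtx4 Pi4k2a and Tmem120a (0.79 each). For the higher set they were Cnot4 (0.79) and Sf1 (0.77) for Ankrd12, Osbpl11 and Sh3glb2 (0.90 each) for Utrn, Zfp275 (0.76) and Cant1 (0.75) for Cplane1, Gga3 and Prr14l (0.84 each) for Aak1, and Adcy6 and Lzts2 (0.77 each) for Apex2. Those values are over 54 arrays, subcutaneous fat included, and are not given without that tissue. Without the 2 arrays farthest out the 20 Pearson values ran between 0.51 (Cplane1 with Zfp275) and 0.82 (Utrn with Osbpl11), with Dtx4 and Tmem120a at 0.54, and the Spearman values ran between 0.46 and 0.74.

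**Figure D4:**
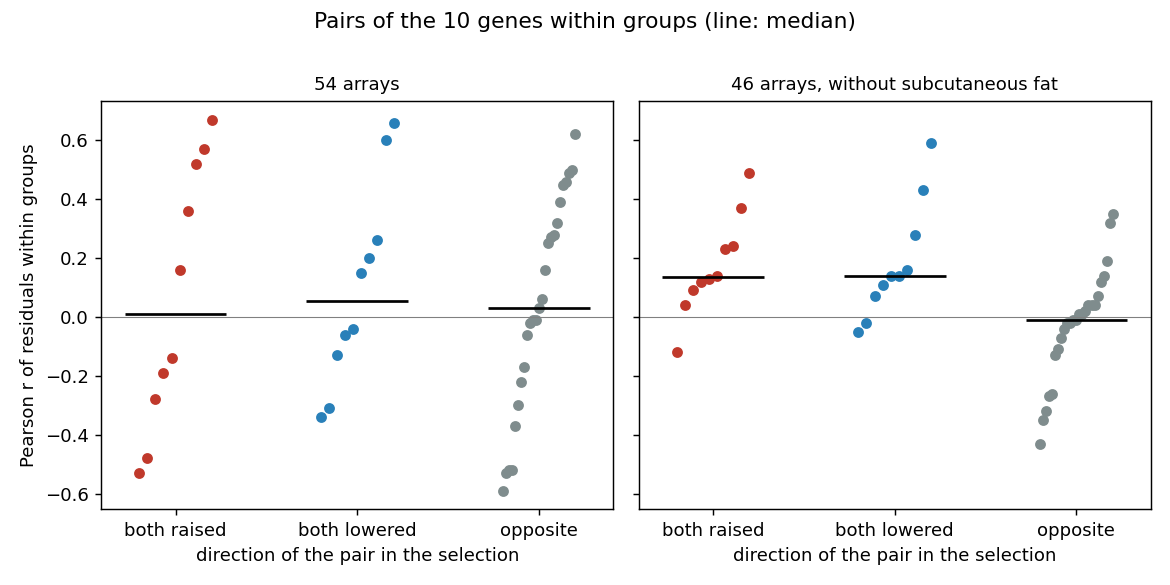
Pearson r of residuals from the group means (vertical axis) for pairs of the 10 genes, grouped by whether both are of the higher set, both of the lower set or one of each (horizontal axis), over 54 arrays on the left and 46 arrays without subcutaneous fat on the right; each point is a pair and lines are medians. The medians on the right are 0.14, 0.14 and -0.01.

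Where the genes are normally high was tested on the 27 control arrays, which the choice did not rest on as a level, with all arrays normalized together. All 10 genes differed between the 7 tissues in limma's F test, as did 99.7% of 11712 genes, with adjusted p between 2.7e-15 for Cplane1 and 4.15e-06 for Apex2. Brain was the top tissue for Aak1 at 10.79 ± 0.12, Ankrd12 at 8.99 ± 0.22 and Cplane1 at 8.41 ± 0.06 (SD, n = 4, limma adjusted p of the step to the next tissue 3.31e-10, 0.000988 and 3.27e-12). Visceral fat was the top tissue for Utrn at 10.17 ± 0.14 and Dtx4 at 9.02 ± 0.13 (SD, n = 4, limma adjusted p of the step to subcutaneous fat 0.00086 and 0.000517). The highest subcutaneous fat control stood at 10.24 for Utrn and 9.01 for Dtx4, inside the range of the visceral fat controls. Normalized within the tissue, the highest control for both genes was replicate 17, which lacks the lymphocyte genes of the other controls. The part of lymphocyte content in these 2 steps was not tested. Muscle was the top tissue for Chchd10 at 11.48 ± 0.06, Tomm40l at 8.30 ± 0.08, Apex2 at 8.22 ± 0.08 and Eif2b2 at 9.23 ± 0.11, and subcutaneous fat for Polr2e at 9.64 ± 0.17 (SD, n = 4). For Eif2b2 and Polr2e the step to the next tissue did not pass (limma adjusted p = 0.0536 and 0.0726).

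Liver was the lowest tissue for Ankrd12 (6.47 ± 0.18), Cplane1 (6.64 ± 0.16), Aak1 (8.28 ± 0.08) and Polr2e (8.29 ± 0.09, SD, n = 3). Spleen was lowest for Dtx4 (7.10 ± 0.13), Tomm40l (6.72 ± 0.10) and Chchd10 (7.83 ± 0.13), and brain for Utrn (7.77 ± 0.06), Apex2 (7.33 ± 0.04) and Eif2b2 (7.95 ± 0.07, SD, n = 4). Between neighbouring tissues in the order of levels, 28 of 60 steps passed, and the middle of each order was mostly not separable, as for Apex2 from liver (7.91) through spleen, kidney and subcutaneous fat to visceral fat (7.74). Chchd10 had the widest range of the 10 genes, 3.65 units, and Apex2 the narrowest, 0.88, beside a median of 1.93 over all genes. For Apex2 the visceral fat difference of 1.07 was larger than its whole range between control tissues, and for the other 9 genes the range was the larger.

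**Figure D5:**
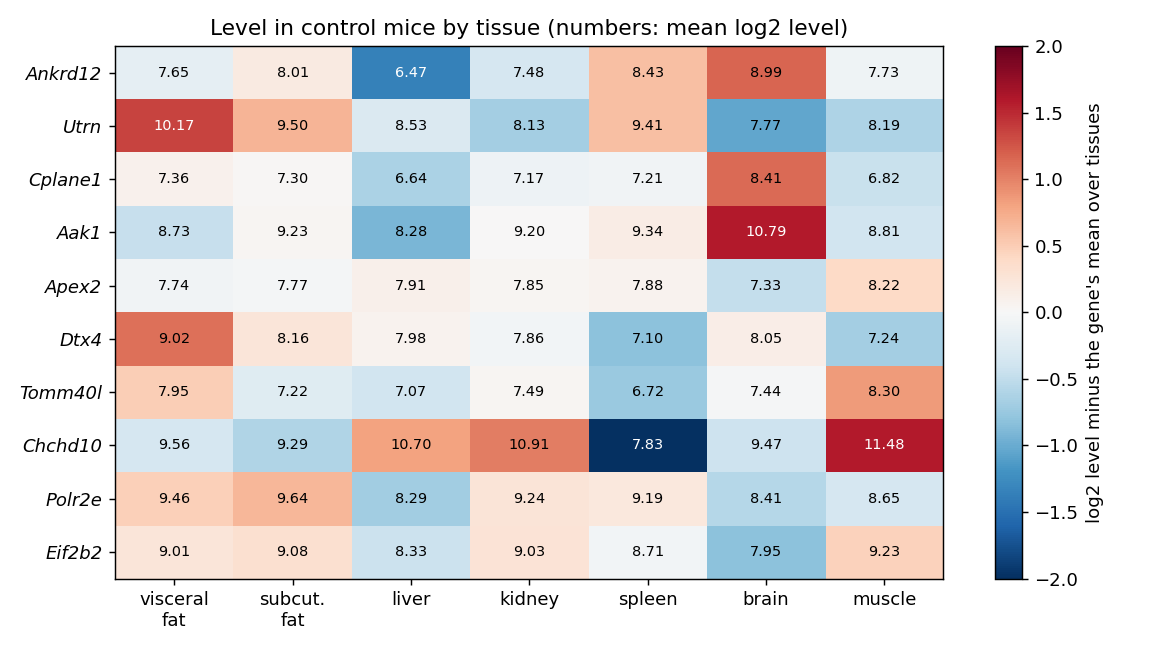
Mean log2 level of each gene (rows) in control mice in 7 tissues (columns), after quantile normalization over all arrays; colour is the level minus the mean of the gene over tissues, and rows are not to be compared with each other because probes differ. Chchd10 spans 7.83 in spleen to 11.48 in muscle and Apex2 7.33 in brain to 8.22 in muscle.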

How the data were processed

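The deposited values are linear signal intensities of Mouse Gene 1.1 ST arrays, 1 column for each of 54 arrays. The submitters' processing notes name PLIER and limma, with no version given here. Probe sets were named from the platform annotation, and 21086 of 25917 carry 1 gene symbol. Here intensity + 16 was put on the log2 scale and quantile normalized within a tissue, the dimmest 40% of probe sets were left out, and the brightest probe set stood for a gene. Swim and control arrays were compared with limma 3.58.1 in R 4.3.3, with Benjamini-Hochberg adjustment over all genes of a tissue and a threshold of 0.05. Array groups were taken from the labels. The number of arrays limits the precision. Control tissues were compared in 1 fit of 27 arrays normalized with all others. Fits were tested on simulated data.

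The members and the gene lists were chosen with earlier results of these data known. The named list genes are up to 4 of a list that passed in most tissues, plus close relatives of the members. Hes1 is named besides, to stand beside Hey1. Neighbouring genes, motifs, promoters shown and values relative to the median of all genes were chosen after values were seen. Gene span replaced transcript length, which was not used here. Alternatives tried were the scaling, pseudocount, filter, probe set rule, fit and leaving out each array.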

Additional observations from a re-analysis of the deposited data

Results flagged for a closer look

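Among 120 groups of 4 arrays of the 10 genes, 2 held an array far from the other 3, where chance alone gives about 1 in 20 such groups. Cplane1 stood at 7.4 in spleen control replicate 25, against 7.24 to 7.25 in the other spleen controls. Chchd10 stood at 9.72 in brain control replicate 35, against 9.44 to 9.47 in the other brain controls.

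In 3 cases every swim array lay above every control array for a gene that lay below in other tissues. These were Chchd10 in liver, with a difference of 0.16, Polr2e in liver, with 0.21, and Polr2e in muscle, with 0.39. Beside them, 9.92% of all genes in liver and 12.9% in muscle had every swim array above every control array. Without control replicate 52 the liver differences were 0.13 for Chchd10 and 0.16 for Polr2e. The difference between tissues was not tested.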

How the results depend on the processing

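No paired analysis was possible because the groups share no replicate number. Of 1110 alternative values for the 10 genes by tissue, 1024 moved by less than 1 SD between replicates and 85 moved by more. The values that moved by more were 40 of 70 as deposited and 31 of 70 median centred. A pseudocount of 64 gave 8, the mean of probe sets 5 and a pseudocount of 1 gave 1. Most other values could hardly move. Leaving 1 array out shifts a mean of 3 or 4 arrays by less than 1 SD. The fit and filter settings leave the difference nearly as it was. The total is therefore no measure of stability. A limma call that held in the main setting turned round in 1 value, Aak1 in spleen at -0.07 as deposited. Counting uncalled values too, 13 changed sign: 7 as deposited (Aak1 and Apex2 in spleen, Ankrd12, Aak1, Polr2e and Eif2b2 in brain, Eif2b2 in muscle), 1 median centred (Eif2b2 in muscle) and 5 with 1 array left out. Counts of list genes depended on the setting, and the cause was not tested. Shares over all genes were not computed for these settings, so nothing about the lists is read from the counts. The median of all genes itself moved, by -0.27 in spleen as deposited and by -0.22 in visceral fat after median centring. As deposited, higher and lower calls were 3 and 4 in visceral fat, 0 and 0 in kidney, 0 and 70 in spleen, and 0 and 1 in muscle. Median centring gave 6 and 62 in visceral fat, 2 and 19 in spleen, and 6 higher in kidney and 4 higher in muscle. With no filter kidney had 10 and 8, muscle 6 and 2, and spleen 4 higher. In 1 fit of 54 arrays, subcutaneous fat had 56 and 24, kidney 0 and 3, spleen 0 and 5, muscle 5 and 4, and liver 2 lower. Liver had 1 and 2 with a pseudocount of 64, and 2 and 2 with limma's trended, robust fit. Leaving out 1 array at a time gave, for higher and lower calls, 7 to 8 and 9 to 19 in visceral fat, 8 to 11 and 7 to 10 in kidney, 2 to 6 and 3 to 12 in spleen, 0 to 1 and 0 to 0 in liver, and 0 to 0 in brain. Muscle ran from 1 to 10 and from 0 to 5, with 1 and 0 when swim replicate 46 was left out. Subcutaneous fat ran from 0 to 30 and from 0 to 11, with 30 and 11 when control replicate 17 was left out. Genes in the direction of the choice numbered 7 to 8 in liver and subcutaneous fat and 8 to 9 in muscle. The median correlation of genes of 1 set was 0.71 as deposited and 0.52 median centred, and across sets 0.74 and 0.50. Long minus short genes differed by 0.18 in subcutaneous fat and 0.08 in muscle with 3 length classes, and by 0.07 in brain as deposited and also median centred. Coding length as an alternative measure was not run. Signal over background was not given per array, so dim levels have no bound here.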
